A study of Homo sapiens with 6 samples.

Results

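The Kruppel-like factor genes described here are KLF2, KLF3, KLF4, KLF5, KLF6, KLF7, KLF9, KLF10, KLF11 and KLF12, 10 of the 19775 genes that the array's annotation names. They were taken by name, through every probe set annotated to 1 of them and to no other gene. They are part of a larger family, whose other tested genes are described further below. The choice of these 10 was made with earlier results of these data known. The members had 36 probe sets, of which 35 passed the filter on dim signals. Total RNA was measured in CL1-5, the highly invasive of a pair of lung adenocarcinoma cell lines, and in CL1-0, the poorly invasive one, both derived from the parental line CL1. Each line was sampled as 3 biological repeats on 3 one-colour Affymetrix arrays, with no gene altered and no agent given, and both were grown in RPMI medium with fetal bovine serum and antibiotics. Each side of the comparison is thus 1 line, and the p-values measure the spread between its repeats. In bulk RNA of this kind, fewer cells with a transcript and less transcript per cell cannot be told apart.

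Kruppel-like factors are transcription factors that bind GC-rich and CACCC-containing DNA through a conserved set of zinc fingers at their C-terminal end. Since the fingers are alike across the family, members can compete for the same sites, and what separates them is the rest of the protein. KLF2, KLF4, KLF5, KLF6 and KLF7 act mainly as activators and recruit acetyltransferases, KLF9, KLF10 and KLF11 recruit the SIN3A corepressor, and KLF3 and KLF12 recruit the CtBP corepressors. In epithelia KLF4 is known for differentiation and exit from the cell cycle, and KLF5 for proliferation of basal and progenitor cells.

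Signals are probe set intensities on a linear scale in arbitrary units. Array medians lay between 30.2 and 30.9, and any 2 arrays of the same line correlated at 0.989 or more (Pearson, across genes), against at most 0.866 for arrays of different lines. Of 11 markers of lung adenocarcinoma and epithelium, 3 lay at or under the 40th percentile of every CL1-5 array and 2 of every CL1-0 array, a percentile of 19.5 to 20.3 signal units taken as a stand-in for background. Their summed signal was 4718 to 5563 in CL1-5 and 461 to 500.1 in CL1-0, most of the CL1-5 sum coming from KRT18 and KRT8. EPCAM (mean 10.3 in CL1-5 and 29.3 in CL1-0) and CDH1 (35.15 and 41.95) went the other way at dim signals, with no overlap between the lines. The rest of the 11 overlapped, so the sum does not stand for the markers as a set. The lung lineage factor NKX2-1, at 25.0 ± 0.50 (SD) in CL1-5 and 26.9 ± 3.30 in CL1-0, and the surfactant gene SFTPB, at 38.0 ± 1.53 in CL1-5 and 36.5 ± 1.53 in CL1-0, were dim in both lines, so the labelled lung origin is not visible in them. Of 3 blood markers PTPRC and CD14 lay at or under that percentile on all 6 arrays. CD3E lay above it on all 6, at dim signals of 23.7 ± 4.30 in CL1-5 and 24.6 ± 2.51 in CL1-0. Of the neural markers MAP2 read 7.30 ± 1.30 in CL1-5 and 3675 ± 243 in CL1-0. TUBB3 was bright in both lines (3200 ± 66.2 in CL1-5 and 2427 ± 124 in CL1-0), and GFAP was dim (44.4 ± 4.73 and 37.5 ± 3.04). The part of the epithelial genes in the results below was not tested.

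Transcripts of 4 members were higher in CL1-5 and those of 4 were lower, out of 10. KLF4 and KLF5 showed the largest changes and went opposite ways: the KLF4 signal was 8.01-fold higher in CL1-5 and the KLF5 signal 9.81-fold lower. KLF6, KLF7 and KLF10 were also higher, and KLF9, KLF11 and KLF12 were also lower. KLF2 and KLF3 did not pass the test. Calls are those of limma's moderated test on log2(signal + 6.85), fitted over 14828 genes with 1 probe set each, at a Benjamini-Hochberg adjusted p under 0.05, and n is 3 arrays per line throughout. Log2 fold changes are CL1-5 over CL1-0 on that scale, on which the change of a dim gene comes out too small.

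The lines differ widely, so these counts have to be read against all genes. By the same rule 8 of 10 members were called, 4 as higher and 4 as lower in CL1-5, against 51.6%, 23.3% and 28.3% of all genes tested. For 8 members no array of 1 line overlapped those of the other, as for 58.8% of all genes. Changes of more than 2-fold were called for 4 members (KLF4, KLF5, KLF7 and KLF12) and for 16.1% of all genes. KLF7 and KLF12 lay close to 2-fold, and without CL1-0 repeat 3 (0.948 and -0.998 on the log2 scale), with array weights or with the mean of a gene's probe sets the count was 2, KLF4 and KLF5. The median log2 fold change of the members was 0.08, beside -0.03 over all genes, and the median of its size was 0.71, beside 0.32.

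**Figure D1:**
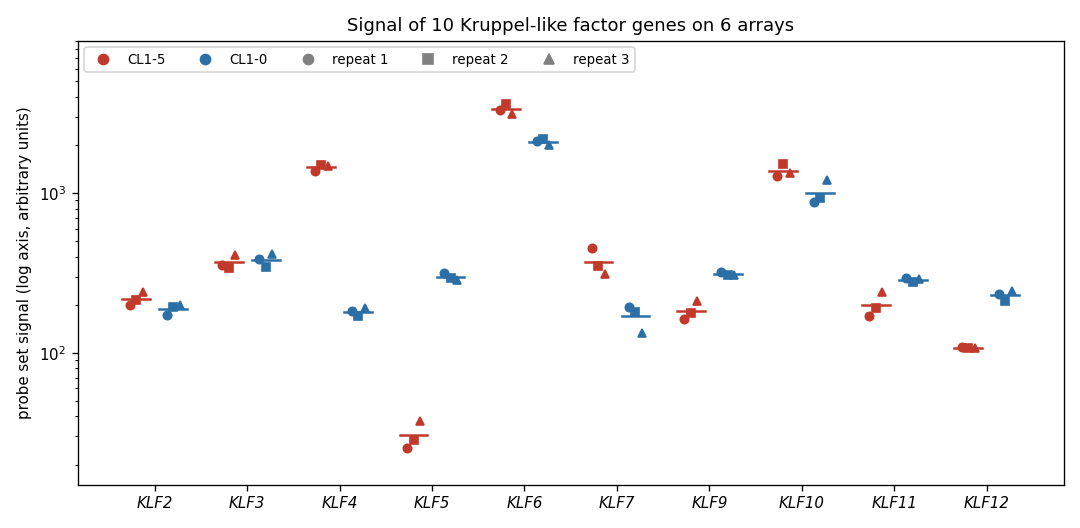
Signal of the 10 genes on each array, through the probe set used for the gene (log axis, arbitrary units), with CL1-5 in red to the left and CL1-0 in blue to the right, 1 symbol per repeat and a line at the mean. KLF4 and KLF5 part the lines the most, in opposite directions, while KLF2 and KLF3 overlap, and heights of different genes are not comparable because their probes differ.

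Among the activators 3 of 5 members were higher in CL1-5 and 1 was lower, beside 23.3% and 28.3% of all genes. Groups of so few members cannot relate a role to a direction. KLF4, a zinc finger factor of epithelial barrier formation and one of the classical reprogramming factors, had signals of 1376, 1499 and 1477 in CL1-5 repeats 1, 2 and 3, against 183, 169 and 191 in CL1-0. The lowest CL1-5 array was thus far above the highest CL1-0 array, and the spread within a line was small beside the gap. The log2 fold change was 2.96 (SE 0.09, adjusted p = 1.4e-08), and 2.60% of the genes tested changed by more. The second KLF4 probe set read 292, 326 and 297 in CL1-5 and 49.0, 41.2 and 45.2 in CL1-0, a log2 fold change of 2.59 (SE 0.10, adjusted p over all probe sets = 9.3e-07).

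KLF5, an activator of proliferation in intestinal crypts and basal epithelium, moved the other way. Its signals were 25.4, 28.4 and 37.6 in CL1-5, against 316, 294 and 287 in CL1-0. All CL1-5 arrays lay only a little above the stand-in for background, whereas all CL1-0 arrays were clearly above it. The log2 fold change was -3.05 (SE 0.13, adjusted p = 1.7e-07), and 2.45% of the genes tested changed by more. The other KLF5 probe set read 13.5, 15.5 and 14.98 in CL1-5 and 155, 145 and 170.1 in CL1-0. Since its CL1-5 arrays all lay under the 40th percentile, its difference is a bound, at least 6.10-fold lower in CL1-5 (adjusted p over all probe sets = 4.2e-07).

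The stretches just before the starts of these genes are shown because KLF4 and KLF5 are the members with the largest called increase and decrease, and because family members are known to act on one another's promoters. They are the 250 bases before each start in RefSeq's annotation of GRCh38.p14, 5′ to 3′ on the gene's strand, with the family's CACCC motif in capitals on either strand (CACCC or GGGTG). KLF4 has 1 start there, on the minus strand at chr9:107489770-107490019, and KLF5 has 2, on the plus strand at chr13:73054726-73054975 and chr13:73058755-73059004.
KLF4: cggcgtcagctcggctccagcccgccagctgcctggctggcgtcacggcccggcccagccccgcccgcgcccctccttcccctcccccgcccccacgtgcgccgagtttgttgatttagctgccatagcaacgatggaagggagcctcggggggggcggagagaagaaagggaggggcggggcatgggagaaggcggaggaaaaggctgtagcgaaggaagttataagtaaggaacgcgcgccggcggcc
KLF5 upstream start: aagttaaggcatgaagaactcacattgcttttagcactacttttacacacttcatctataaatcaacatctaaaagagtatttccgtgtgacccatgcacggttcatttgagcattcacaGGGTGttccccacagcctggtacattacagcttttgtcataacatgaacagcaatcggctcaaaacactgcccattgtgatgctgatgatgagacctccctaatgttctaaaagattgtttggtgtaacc
KLF5 downstream start: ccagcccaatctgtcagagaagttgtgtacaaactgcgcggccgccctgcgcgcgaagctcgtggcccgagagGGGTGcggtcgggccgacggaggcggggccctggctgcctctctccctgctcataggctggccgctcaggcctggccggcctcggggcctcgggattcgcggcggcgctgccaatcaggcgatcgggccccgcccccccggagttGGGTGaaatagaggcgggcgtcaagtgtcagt

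The KLF4 window held 0 CACCC motifs and 4 GC boxes (GGGCGG or CCGCCC), the upstream KLF5 window 1 and 0, and the downstream KLF5 window 2 and 2, with no overlap between the motifs. GC content was 69.2% in the KLF4 window, and 40.8% and 70.8% in the upstream and downstream KLF5 windows. Windows were at hand for 8 of the 10 members, 16 in all. CACCC occurred in 7 of the 16 and the GC box in 8 of the 16, beside 54.7% and 42.6% of the 35116 windows of the same length in the whole table. KLF12, lower in CL1-5, had 2 windows with 5 CACCC motifs each. These matches describe letters in a short window and do not show a bound site, and which KLF5 start the lines use was not measured.

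KLF6 and KLF7, close relatives of each other, were both higher in CL1-5. KLF7, an activator best known from developing neurons, had signals of 453, 350.9 and 312 in CL1-5, against 193, 181 and 133 in CL1-0. The lines did not overlap, although repeat 3 was the lowest in each. The log2 fold change was 1.10 (SE 0.17, adjusted p = 6.3e-04). All 5 KLF7 probe sets were called as higher, with log2 fold changes from 0.54 to 1.49.

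KLF6, a broadly expressed activator induced by tissue injury, had signals of 3328, 3597 and 3143 in CL1-5, against 2110, 2189 and 1998 in CL1-0. Every CL1-5 array lay above every CL1-0 array, with a log2 fold change of 0.67 (SE 0.08, adjusted p = 7.9e-05). Of its 5 probe sets 2 were called as higher and 3 were not. Repeat 3 was the lowest in both lines for all 3 uncalled ones and for 1555832_s_at, the called one used for the gene. The probe set 208960_s_at read 2898, 2533 and 1218 in CL1-5 repeats 1, 2 and 3, against 1586, 1471 and 617 in CL1-0, so that the lines overlapped although CL1-5 was higher within each repeat. The probe set 208961_s_at read 3311, 3077 and 2061 in CL1-5, against 2319, 2153 and 1334 in CL1-0.

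The repeat number therefore carried part of the KLF6 spread. With it as a block in the fit, 208960_s_at and 208961_s_at passed as higher, at log2 fold changes of 0.87 (adjusted p = 2.3e-08) and 0.55 (adjusted p = 6.3e-07). The called probe set 224606_at was instead highest in repeat 3, at 3369 in CL1-5 and 2350.5 in CL1-0. The array's own signs of RNA quality moved with repeat 3 too. The log2 ratio of the 3′ to the 5′ control probe set of ACTB was 0.31, 0.40 and 0.91 in CL1-5 repeats 1, 2 and 3 and 0.53, 0.44 and 1.17 in CL1-0, and that of GAPDH was 0.04, 0.02 and 0.197 in CL1-5 and 0.08, 0.14 and 0.25 in CL1-0. The part of RNA quality in the KLF6 values was not tested. Repeat 3 was the lowest in both lines for 13 of the 35 probe sets of the members, beside 27.2% of all probe sets that passed the filter, and the highest in both for 8, beside 24% of all.

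**Figure D2:**
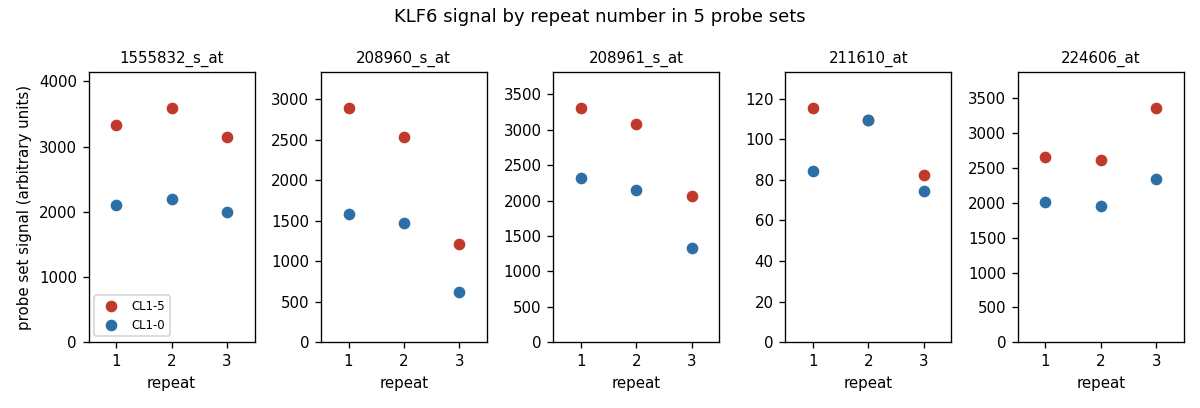
KLF6 signal (arbitrary units, each panel from 0 with its own scale) in 5 probe sets against the repeat number, with CL1-5 in red and CL1-0 in blue, 1 point per array. CL1-5 lies above CL1-0 in each repeat, except that the points of 211610_at coincide in repeat 2 (109.66 in CL1-5 and 109.63 in CL1-0), and repeat 3 is lowest in both lines in every probe set but 224606_at, where it is highest.

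KLF2, an activator known for endothelial and lymphocyte quiescence, was near its threshold. The probe set used for the gene read 199, 215 and 242 in CL1-5, against 172, 193 and 199.8 in CL1-0. The lines overlapped by a single pair of arrays, and the log2 fold change of 0.21 (SE 0.11) did not pass (adjusted p = 0.14). With the repeat number as a block it did, at an adjusted p of 0.036. The blocked fit thus called 5 members as higher and 4 as lower, beside 28% and 34.7% of all genes. The dimmer KLF2 probe set read 49.9, 49.6 and 54.8 in CL1-5 and 31.7, 33.4 and 35.7 in CL1-0, with no overlap and a call as higher (0.53, SE 0.09, adjusted p over all probe sets = 0.0025).

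Of the 3 members that recruit SIN3A, 2 were lower in CL1-5 and 1 was higher, beside 28.3% and 23.3% of all genes. KLF9, a factor induced by glucocorticoid, progesterone and thyroid hormone, had signals of 162, 178 and 212 in CL1-5, against 320.4, 309 and 307 in CL1-0. The lines did not overlap, and the CL1-0 arrays lay within a narrow range. The log2 fold change was -0.75 (SE 0.11, adjusted p = 4.6e-04). Of 5 KLF9 probe sets 3 were called as lower, at -1.03, -0.75 and -0.28, and 2 were not called, at -0.05 and 0.19. The probe set at -0.28 was the dimmest of the 5, with a mean signal of 21.4 in CL1-5 and 27.3 in CL1-0, and those not called had means of 27.9 and 40.2 in CL1-5 and 29.0 and 34.2 in CL1-0.

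KLF10 and KLF11 are a pair first found as early genes of the response to TGF-beta. KLF10 read 1277, 1526 and 1328 in CL1-5, against 874, 928 and 1208 in CL1-0. The lines came close, the lowest CL1-5 array lying just above CL1-0 repeat 3. Its log2 fold change was 0.46 (SE 0.13, adjusted p = 0.015), through the only probe set it has. KLF10 no longer passed when CL1-5 repeat 2 was left out (0.39, adjusted p = 0.065), nor when CL1-0 repeat 1 (0.37, 0.058) or CL1-0 repeat 2 (0.42, 0.062) was. Within repeats 1, 2 and 3 the log2 difference was 0.54, 0.71 and 0.14.

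KLF11 differed in the other direction from KLF10. Its signals were 170.4, 192 and 239 in CL1-5, against 292, 278 and 289 in CL1-0. No arrays overlapped, and the CL1-5 repeats were the more variable. The log2 fold change was -0.51 (SE 0.13, adjusted p = 0.0077). Within repeats 1, 2 and 3 the log2 difference was -0.76, -0.52 and -0.27. The dimmer KLF11 probe set was lower by less and overlapped between the lines (-0.30, adjusted p over all probe sets = 0.18), but in the blocked fit it passed as lower (adjusted p = 0.018).

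Of the 2 members that recruit CtBP 1 was lower in CL1-5, beside 28.3% of all genes. KLF12, a repressor first described at the promoter of the AP-2 alpha gene, read 108.1, 107.8 and 106.9 in CL1-5, against 232, 212 and 244 in CL1-0. The CL1-5 arrays were almost equal and all under the CL1-0 arrays, with a log2 fold change of -1.04 (SE 0.09, adjusted p = 2e-05). Of its 8 probe sets 7 passed the filter, 3 were called as lower and 4 were not, and the values of the 7 ran from -1.04 to -0.05. KLF3, a repressor with roles in fat and blood cells, read 356, 342 and 409.6 in CL1-5, against 386, 345 and 416 in CL1-0. These overlap almost entirely, and the log2 fold change of -0.05 (SE 0.11) did not pass (adjusted p = 0.73). None of the 4 KLF3 probe sets was called without the block, and with it 225140_at was, as lower (-0.25, adjusted p = 0.014).

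Over all probe sets of the members, 11 were called as higher in CL1-5 and 9 as lower, 20 of 35, beside 19.7%, 24.6% and 44.3% of all 33832 probe sets. Each of the 20 had the same sign within all 3 repeats. There were 0 members with probe sets called in both directions. With the repeat number as a block 14 were called as higher and 11 as lower, beside 58.3% of all probe sets called in either direction.

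**Figure D3:**
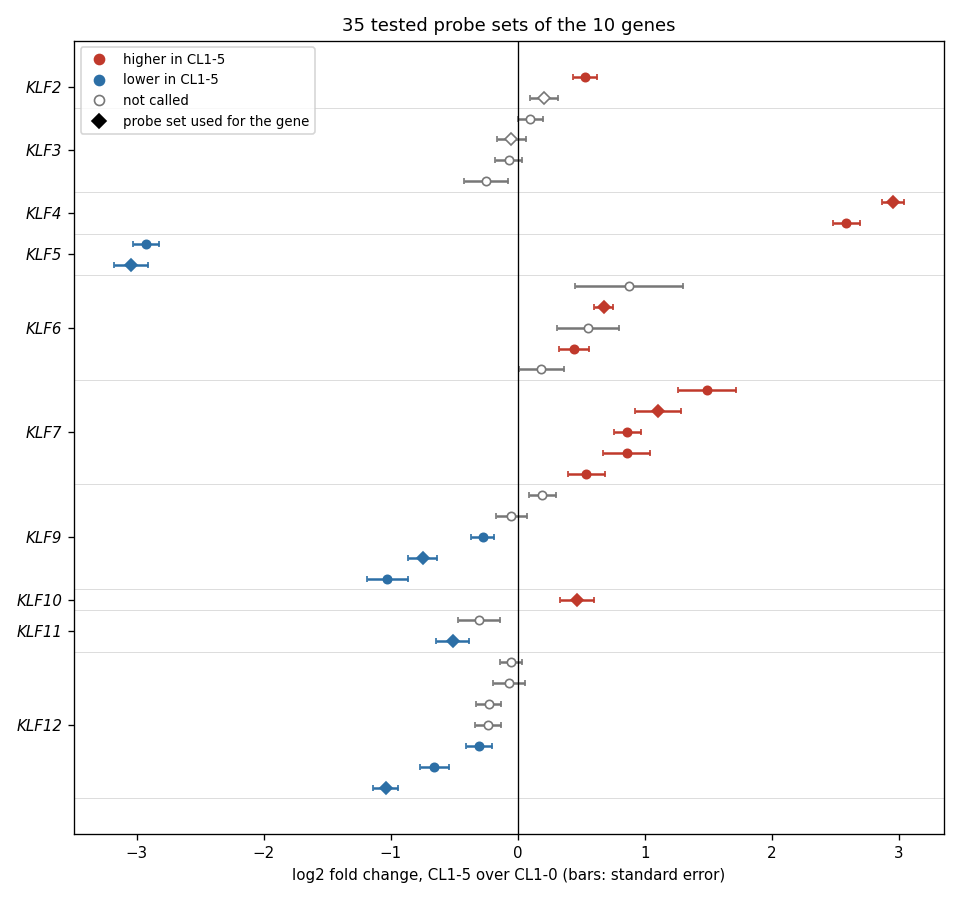
Log2 fold change of CL1-5 over CL1-0 with its standard error for the 35 tested probe sets, grouped by gene, with diamonds for the probe set used for the gene, filled symbols for called probe sets and open ones for the rest. Both probe sets of KLF4 lie far to the right (2.59 and 2.96) and both of KLF5 far to the left (-2.92 and -3.05), while those of KLF9 spread from -1.03 to 0.19 and those of KLF12 from -1.04 to -0.05.

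The genes whose profiles over the 6 arrays lay nearest to KLF4, by Euclidean distance between log2 values centred on each gene's mean, were HERC6 (0.09), CAV1 (0.11) and TM4SF18 (0.18). HERC6 is a ubiquitin ligase relative induced by interferon, and CAV1 the main protein of caveolae. Their log2 fold changes were 2.94, 2.95 and 2.92. Nearest to KLF5 were SALL4 (0.15), a zinc finger factor of embryonic stem cells, DAPK1 (0.21), a death-associated kinase, and PPP2R2C (0.21), a regulatory subunit of protein phosphatase 2A, with log2 fold changes of -3.09, -2.99 and -3.08. With 2 lines, such likeness reflects little more than an equal fold change.

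Of 16 listed genes of the rest of the family and of the related SP factors, which bind the same GC boxes, 10 were tested, of which 1 was higher and 3 were lower in CL1-5. SP1, the founding member and a factor of many housekeeping promoters, read 324, 328 and 549 in CL1-5, against 727, 722 and 999 in CL1-0, a log2 fold change of -1.04 (SE 0.21, adjusted p = 0.0029, and 0.052 without a moderated variance). SP4, prominent in neurons, was lower (-0.60, SE 0.10), as was KLF15, a factor of muscle and liver metabolism (-0.58, SE 0.18, adjusted p = 0.026). SP5, a target of Wnt signalling, was higher at dim signals of 49.0 ± 4.64 (SD) in CL1-5 and 28.9 ± 2.15 in CL1-0 (0.64, SE 0.10).

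The KLF15 call did not hold without CL1-5 repeat 3 (-0.39, adjusted p = 0.057), CL1-0 repeat 2 (-0.57, adjusted p = 0.072) or CL1-0 repeat 3 (-0.49, adjusted p = 0.071). SP3 (0.46, adjusted p = 0.066) and KLF16 (0.30, adjusted p = 0.19) did not pass, though both did as higher with the repeat number as a block, at adjusted p of 1.1e-04 and 0.011. SP3 also passed without CL1-0 repeat 3 (0.69, adjusted p = 8.2e-04), which made 2 of the listed genes higher. KLF13 (0.10), SP8 (0.07), SP2 (0.04) and SP6 (-0.02) passed neither with nor without the block. KLF13 did pass as higher with array weights (0.13, adjusted p = 0.041), and 1 of its 4 probe sets was called as higher.

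Counts of genes called in the lists above and below stand beside 23.3% of all genes called as higher and 28.3% as lower. Of 14 tested coactivators and corepressors, partners through which the factors act, 3 were higher and 4 lower, close to those shares. Their median was -0.09. With the repeat number as a block 7 were lower, beside 34.7% of all genes. SAP18 (adjusted p = 2.5e-04) and SAP30 (0.016), subunits of the SIN3 complex, and the corepressor CTBP2 (0.019), named for that reason, then passed. The deacetylase HDAC2 (-1.14, SE 0.10), the acetyltransferases KAT2B (-0.86, SE 0.10) and CREBBP (-0.57, SE 0.10) were lower, and FHL3, a LIM protein that binds KLF3, was higher (0.69, SE 0.10). SIN3A itself was higher by 0.49 (SE 0.10), a gene named here after its value was seen because KLF9, KLF10 and KLF11 recruit its protein. Of 10 tested ubiquitin ligases and kinases reported to act on the proteins, 3 were higher and 3 lower. The ligase component FBXO32 read 504, 487 and 514 in CL1-5, against 24.1, 23.7 and 24.0 in CL1-0, a log2 fold change of 4.04 (SE 0.09). SMURF2 was higher (1.35, SE 0.17), and BTRC (-0.96, SE 0.12) and VHL (-0.63, SE 0.17, adjusted p = 0.012, and 0.085 without a moderated variance) were lower.

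Genes upstream of single members also went both ways. In the list for the MEK5-ERK5-MEF2 pathway, which drives KLF2 and KLF4 in endothelium under flow, 3 of 10 tested genes were higher and 4 lower. The list mixes parts of different roles, since it holds deacetylase genes besides the kinases and MEF2 factors. Deacetylase genes were among those called in each direction, so the counts cannot show a direction of the pathway. The higher count was 0 when CL1-5 repeat 2, CL1-5 repeat 3 or CL1-0 repeat 2 was left out. The factor MEF2C read 30.4, 14.4 and 13.8 in CL1-5, against 1269.7, 1244 and 1769 in CL1-0. Only 1 of its 3 CL1-5 arrays lay above the stand-in for background, and the log2 fold change was -5.80 (SE 0.24). MEF2A (-1.93, SE 0.11) and the kinase MAP3K2 (-0.99, SE 0.12) were lower, and MAPK7, the gene for ERK5, was higher (0.58, SE 0.18, adjusted p = 0.025). MAPK7 no longer passed when CL1-5 repeat 2 (0.60, adjusted p = 0.062) or 3 (0.42, 0.065) or CL1-0 repeat 1 (0.46, 0.091) or 2 (0.58, 0.07) was left out.

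Of 11 tested TGF-beta and SMAD genes, the pathway of KLF10 and KLF11, 6 were higher and 4 lower, with a median of 0.24. The higher count was 3 when CL1-5 repeat 2 or CL1-0 repeat 2 was left out and with the mean of a gene's probe sets. The receptor TGFBR2 (4.69, SE 0.09) and the signal transducer SMAD3 (3.24, SE 0.12) were higher, and the ligand TGFB2 (-3.56, SE 0.11) and the SMAD antagonist SKIL (-1.18, SE 0.16) were lower. For TGFB2, 2 of 3 CL1-5 arrays lay under the stand-in for background. The glucocorticoid list, fixed for KLF9, had 4 genes higher and 2 lower of 6 tested, with a median of 1.73. SGK1 (4.90, SE 0.13), DUSP1 (3.32, SE 0.08) and NFKBIA (1.76, SE 0.15) were higher, while the leucine zipper gene TSC22D3 (-1.94, SE 0.12) was lower, as KLF9 was. The rest of those tested, named after their values were seen, were the receptor gene NR3C1, higher (1.69, SE 0.09), and FKBP5, lower (-1.10, SE 0.08). Of 11 tested clock genes 3 were higher and 4 lower, among them BMAL2 (1.53, SE 0.23) and NPAS2 (1.03, SE 0.11) higher and CLOCK (-1.47, SE 0.11) and DBP (-0.90, SE 0.11) lower.

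Genes reported as targets were called in both directions. The lists mix targets that the factors activate with ones they repress. Their counts and medians therefore cannot show whether the targets followed the factors. Of 10 tested KLF2 and KLF4 targets in endothelium 4 were higher and 5 lower, with a median of -0.17 and a median size of 1.73. The receptor thrombomodulin, THBD, was at least 101-fold higher, ANGPT2 at least 36.8-fold and the protease PLAT at least 6.32-fold, CL1-0 lying under the stand-in for background for each. Endothelin, EDN1, which KLF2 is known to repress, read 24.2, 33.9 and 25.0 in CL1-5, against 255, 276.5 and 192 in CL1-0 (-2.84, SE 0.16). Also lower, and named after their values were seen, were HMOX1 (-1.86, SE 0.14), NQO1 (-1.60, SE 0.09) and NOS3 (-1.34, SE 0.13). Of 12 tested targets of KLF4, KLF5 and KLF6 in epithelial and tumour cells 4 were higher and 4 lower, with a median of -0.01. The cell cycle inhibitor CDKN1A, a known target of KLF4 and KLF6, read 909, 1053 and 994 in CL1-5, against 209.8, 196 and 202 in CL1-0 (2.24, SE 0.09).

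Cyclin D1, CCND1, known to be repressed by KLF4 and activated by KLF5, was higher in CL1-5 (2.72, SE 0.11), at 468, 515 and 489 against 61.9, 66.2 and 78.7 in CL1-0. MYC (1.06, SE 0.14) was higher and the polyamine enzyme gene ODC1 (-1.39, SE 0.07) lower. Among 8 tested pluripotency partners 2 were higher and 3 lower. SOX2 was at least 155-fold lower and LIN28A, dim in both lines, at least 1.44-fold lower, while the T-box factor TBX3 (1.16, SE 0.11) and MYC were higher.

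**Figure D4:**
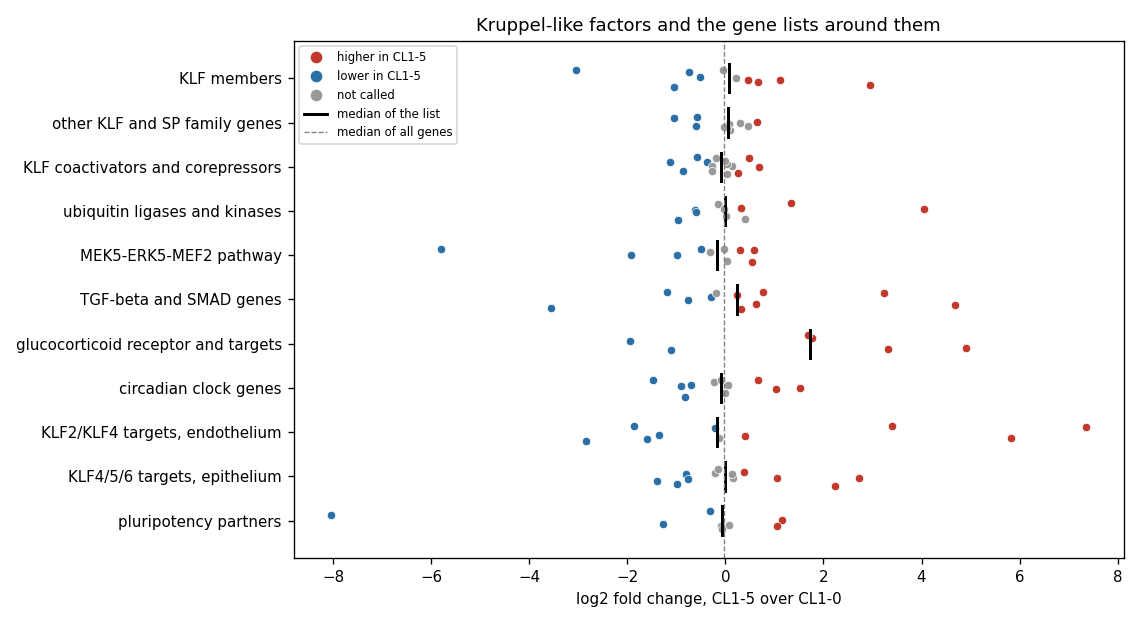
Log2 fold change of CL1-5 over CL1-0 for the 10 members and for the tested genes of 10 lists, 1 point per gene, red for called as higher, blue for called as lower and grey for not called, with a black bar at each list's median and a dashed line at the median of all genes (-0.03). The members' median lies at 0.08, and the glucocorticoid list stands highest at 1.73 with 6 genes.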

How the data were processed

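The authors deposited 1 intensity value per probe set for each of 6 arrays, on a linear scale and with like medians. The submitters' processing notes name MAS5, while its version and later scaling were not given in the sources used here. Names came from the platform annotation, brought up to date by gene identifier with RefSeq (GRCh38.p14). Of 54675 probe sets 41091 had 1 symbol. CKLF, an old alias of KLF5, has another identifier here and was not taken.

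From these values log2(signal + 6.85) was computed, where 6.85 is the 10th percentile over all arrays. Probe sets above the 40th percentile of their array on at least 3 of 6 arrays were kept, and a gene was represented by its brightest one, without suffix x where another passed. The lines were set against each other with limma 3.58.1 under R 4.3.3 (lmFit, eBayes with a trend) and Benjamini-Hochberg adjustment over 14828 genes, or over 33832 probe sets where stated. A line with no array above the 40th percentile gives a bound in place of a fold, set against that percentile, or against the value itself where higher. The steps were tested on simulated data in which 200 of 14828 genes were changed. Log2 changes of 0.5, 1, 2 and 4 were recovered for 36%, 86%, 96% and 100% of the genes given them, with 8 false calls. Changes near 0.5 were thus often missed in the simulation. Far fewer genes were changed there than were called in the data (51.6%), which makes the adjustment stricter, so the shares recovered may differ in the data. The simulated noise was independent between arrays, so the test does not cover likeness between arrays of equal repeat number. No label ties a repeat number to a day or batch, and the main fit took the arrays as unpaired. Deviations from the line means correlated at 0.475, 0.28 and 0.649 between arrays numbered 1, 2 and 3. A second fit therefore took the repeat number as a block. It is given where it changes the call of a member or of a gene named here, or the count of a list. The members and lists were chosen with earlier results of these data known. Genes named are the members, the related KLF and SP genes, the 4 largest called changes of each list and the 3 nearest profiles to the most raised and most lowered member. Alternatives were the constant, the filter, the scaling, the variance trend, array weights, the probe set, the block, arrays left out, the test and the threshold. The number of arrays limits the precision, with a median standard error of 0.11.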

Additional observations from a re-analysis of the deposited data

How the results depend on the processing

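In the 20 alternatives that give a count, 3 to 5 members were higher in CL1-5 and 4 were lower. Left-out arrays gave 3 to 4 higher and 4 lower, repeats 1 and 2 alone 4 and 4, and the replicate block 5 and 4, since KLF2 then passed, when more of all genes passed too. KLF2 also passed with array weights (0.16, adjusted p = 0.035) and with the mean of its probe sets (0.37, adjusted p = 0.0076). KLF4, KLF5, KLF6, KLF7, KLF9, KLF11 and KLF12 kept their direction and call in each alternative with a test. KLF11 came close to the threshold, its highest adjusted p over those tests being 0.048. The KLF9 value ranged from -0.86 to -0.38 and the KLF12 value from -1.14 to -0.37, the smallest sizes coming with the mean of all probe sets of a gene, which includes dim ones. Without a moderated variance KLF10 (adjusted p = 0.09), SP1 (0.052), KLF15 (0.13), VHL (0.085) and MAPK7 (0.12) were lost, and at a threshold of 0.01 KLF10, KLF15, VHL and MAPK7 were, besides the arrays named above. The higher count in the MEK5-ERK5-MEF2 list was then 1 without a moderated variance and 0 at that threshold, and that in the TGF-beta list 3 at that threshold. Among the other KLF and SP genes the higher count was 0 with the filter at the 60th percentile and 4 with array weights, and the lower count 1 without a moderated variance. Repeat 3 alone gave values but no count. The block changed the calls of KLF2, SP3, KLF16, SAP18, SAP30 and CTBP2 among the named genes and of 5 probe sets of the members, and ended no call of either. Through listed genes not named here, the block gave 4 higher ubiquitin ligases and kinases and 5 lower genes in the MEK5-ERK5-MEF2 list. It also gave 5 lower clock genes and 5 higher targets of KLF4, KLF5 and KLF6. Of all genes it called 28% as higher and 34.7% as lower. Called probe sets of the members numbered 14 to 25. For some other genes named as called, not every tested probe set was called. For HDAC2, SKIL, NFKBIA, DBP, MAPK7, SP4 and KLF15 it was 1 of 2. For BTRC it was 2 of 4, for CREBBP and DUSP1 2 of 3, and for SP1, SMURF2 and CLOCK 3 of 4. The sign turned only for genes near 0 that were never called: over the fits without 1 array, KLF3 ranged from -0.1265 to 0.0111, SP8 from -0.0117 to 0.1074, SP2 from -0.0748 to 0.1533 and SP6 from -0.1136 to 0.0575, and SP8 was at -0.0055 with array weights. The cause was not tested. With no detection calls, background is known only through a percentile, which limits the size given for dim genes such as KLF5 in CL1-5.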

Other observations

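KLF5 and KLF12, both lower in CL1-5, are neighbouring protein-coding genes on chromosome 13. Of the 5 protein-coding genes listed on each side of the pair, 8 were tested, 5 of them lower in CL1-5, 0 higher and 3 not called, beside 28.3% of all genes called as lower. Lower in CL1-5 were the mitotic-spindle gene MZT1 (-0.57, SE 0.08), the exosome nuclease DIS3 (-0.26, SE 0.09, adjusted p = 0.038), PIBF1 (-0.98, SE 0.11), the Rab GTPase activator TBC1D4 (-1.20, SE 0.12) and COMMD6 (-0.59, SE 0.11). BORA (-0.18), UCHL3 (0.15) and LMO7 (-0.30) did not pass. The region was looked at after the KLF5 and KLF12 values were seen, and copy number was not measured.

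The long noncoding transcripts beside 2 members were dim. KLF9-DT read 15.3, 20.6 and 16.1 in CL1-5 and 15.01, 16.7 and 19.4 in CL1-0, at or under the stand-in for background on 5 of 6 arrays. The brighter KLF3-AS1 probe set, of the cross-hybridising kind, differed by 0.07 (adjusted p = 0.67).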
